A study of Mus musculus with 2 samples.

Results

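Protein phosphatase genes were examined in a comparison of DNA methylation between Ngn3 null and Ngn3 heterozygous cells sorted from mouse pancreas at E14.5. They were taken by gene symbol: genes whose symbols begin with Ppp and a digit, Ppm1 and a letter from a to n, Ptpr and a letter, Ptpn and a digit, or Dusp and a digit, with Ptprn and Ptprn2 left out. In the RefSeq annotation of GRCm38.p6, 162 of 49997 genes met this rule, of which 149 were protein-coding, out of 21887 such genes on assigned nuclear chromosomes. They comprised 89 serine/threonine phosphatase genes and subunits, 19 receptor tyrosine phosphatase genes, 17 other tyrosine phosphatase genes and 24 dual-specificity phosphatase genes. The other 13 were pseudogenes and long noncoding RNA genes. Classes were set by symbol alone, so the receptor class includes Ptprcap (2.06 kb), and catalytic activity was not checked for any member.

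The null library came from embryos with eGFP at both Ngn3 alleles (Ngn3eGFP/eGFP), and the heterozygous library from embryos with eGFP at 1 allele (Ngn3eGFP/+). Ngn3, current symbol Neurog3, is the transcription factor that commits pancreatic progenitors to the endocrine fate. Cells of both genotypes were sorted for the eGFP that the Ngn3 locus drives, on a mixed strain background that was over 95% ICR, and both libraries were made by whole-genome bisulfite sequencing. The labels call the null cells endocrine progenitors and the heterozygous cells islet progenitors, so an effect of genotype and one of a different stage or mix of sorted cells cannot be told apart. Each genotype had 1 library of about 400000000 reads, per the labels. Without replicates, the differences behind the lists could not be set against a spread between samples, and none is given a p-value.

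The table analysed names the genes nearest to differentially methylated regions. The higher list names genes near regions more methylated in null than in heterozygous cells, and the lower list those near regions less methylated in null cells. It holds no methylation level, region position, region number or coverage. A gene in neither list is therefore not shown to have equal methylation, and a named gene is not shown to differ in its promoter, its body or its expression. The identity of the sorted cells could not be checked by marker expression for the same reason.

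Protein phosphatases remove phosphate groups that kinases have added to proteins. Serine/threonine phosphatases of the PPP family work as a few catalytic subunits joined to many regulatory subunits that choose the substrate, while PPM1 enzymes act alone. Receptor tyrosine phosphatases carry an adhesion-type extracellular part and a cytoplasmic phosphatase part, other tyrosine phosphatases lie within the cell, and many dual-specificity enzymes turn off MAP kinases. In the pancreas, calcineurin is known for its part in beta cell growth and PTP1B for restraining insulin receptor signalling.

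Cytosines followed by guanine (CpG) are the main sites of DNA methylation in mammalian cells, and promoters differ widely in how many they hold. The following stretches are the 250 bases before an annotated RefSeq start in GRCm38.p6, 5′ to 3′ on the gene's strand, with each CpG in capitals. They are shown for the 4 members of the lower list, for Ppp1cb, the PP1 catalytic subunit that works with Ppp1r12a, and for a CpG-rich and a CpG-poor member of the higher list, Ptpn1 and Dusp27. The methylated regions themselves have no positions in the table, and these stretches are not shown to be those regions. They are Ppp1r12a at chr10:108161848-108162097 on the plus strand, Ptpre at chr7:135537574-135537823 on the plus strand, Ptprt at chr2:162661148-162661397 on the minus strand and Ppp1r12b at chr1:134955941-134956190 on the minus strand. The others are Ppp1cb at chr5:32458720-32458969 on the plus strand, Ptpn1 at chr2:167932077-167932326 on the plus strand and Dusp27 at chr1:166127899-166128148 on the minus strand.
Ppp1r12a: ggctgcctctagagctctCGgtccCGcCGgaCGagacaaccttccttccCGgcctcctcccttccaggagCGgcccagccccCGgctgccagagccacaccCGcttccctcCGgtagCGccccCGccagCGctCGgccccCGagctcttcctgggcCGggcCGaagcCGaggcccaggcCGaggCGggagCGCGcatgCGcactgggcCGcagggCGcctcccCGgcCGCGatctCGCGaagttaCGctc
Ptpre: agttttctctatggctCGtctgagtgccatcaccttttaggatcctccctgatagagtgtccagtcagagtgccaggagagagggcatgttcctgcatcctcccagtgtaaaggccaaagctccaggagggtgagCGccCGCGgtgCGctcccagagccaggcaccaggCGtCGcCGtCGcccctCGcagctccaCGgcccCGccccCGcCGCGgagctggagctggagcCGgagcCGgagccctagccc
Ptprt: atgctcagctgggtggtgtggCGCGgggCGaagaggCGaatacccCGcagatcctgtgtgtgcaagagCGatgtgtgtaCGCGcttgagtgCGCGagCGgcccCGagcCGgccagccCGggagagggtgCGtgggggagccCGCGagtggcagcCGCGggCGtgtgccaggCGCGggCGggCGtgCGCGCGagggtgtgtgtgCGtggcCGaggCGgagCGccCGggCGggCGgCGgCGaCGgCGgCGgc
Ppp1r12b: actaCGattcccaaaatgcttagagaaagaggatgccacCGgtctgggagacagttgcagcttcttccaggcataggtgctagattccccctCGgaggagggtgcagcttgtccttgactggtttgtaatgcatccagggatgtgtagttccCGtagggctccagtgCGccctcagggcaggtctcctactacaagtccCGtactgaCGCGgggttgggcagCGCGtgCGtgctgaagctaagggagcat
Ppp1cb: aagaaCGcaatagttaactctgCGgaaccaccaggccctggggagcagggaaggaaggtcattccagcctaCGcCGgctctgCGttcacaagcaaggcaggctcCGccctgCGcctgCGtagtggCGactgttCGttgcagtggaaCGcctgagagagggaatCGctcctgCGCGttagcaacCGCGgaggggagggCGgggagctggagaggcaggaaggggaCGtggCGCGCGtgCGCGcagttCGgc
Ptpn1: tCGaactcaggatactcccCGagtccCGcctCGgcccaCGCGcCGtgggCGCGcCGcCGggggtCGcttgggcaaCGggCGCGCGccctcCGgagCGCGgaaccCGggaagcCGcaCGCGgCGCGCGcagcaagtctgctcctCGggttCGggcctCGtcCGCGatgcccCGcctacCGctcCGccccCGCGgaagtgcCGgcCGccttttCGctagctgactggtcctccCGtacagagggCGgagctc
Dusp27: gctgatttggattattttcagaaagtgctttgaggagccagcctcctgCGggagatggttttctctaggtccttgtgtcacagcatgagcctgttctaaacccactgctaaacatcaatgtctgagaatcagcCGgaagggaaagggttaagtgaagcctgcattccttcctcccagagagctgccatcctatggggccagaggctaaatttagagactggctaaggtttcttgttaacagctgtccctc
The starts are those of single transcripts, the outermost in the table used. The stretch of Ptpn1 therefore lies inside the gene as annotated, and those of Ppp1cb, Ppp1r12a and Ppp1r12b cross the outer end of the gene. The stretches held 30 CpGs for Ppp1r12a, 17 for Ptpre, 39 for Ptprt and 11 for Ppp1r12b. The stretch of Ppp1cb held 24, that of Ptpn1 held 41 and that of Dusp27 held 2.

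Phosphatase genes, like protein-coding genes in general, were named more often near regions of higher methylation in null cells than near regions of lower methylation. Of the 149 protein-coding members, 35 were in the higher list, which is 23.5% (exact Clopper-Pearson 95% interval 16.9 to 31.1%, counting error only), against 12.1% of all protein-coding genes. The lower list held 4 members, which is 2.68% (0.736 to 6.73%), against 1.51% of all protein-coding genes. Ppp1r12a and Ptpre were in both lists, so 37 members were named and 112 were in neither. With genes in both lists left out, the members' shares were 22.4% in the higher list, against 11.6% of all protein-coding genes, and 1.36% in the lower list, against 1.01%. Of all 162 genes that met the rule, 36 were in the higher list (22.2%, against 6.29% of all annotated genes) and 4 in the lower list (against 0.812%). These sets differ in gene class, since 149 of the 162 were protein-coding, against 21887 of the 49997 annotated genes. The gene added to the higher list was Ppp1r2-ps3, a transcribed pseudogene of a PP1 inhibitor gene (chromosome 19, 30538876 to 30539718). The other 12 pseudogenes and noncoding genes were in neither list.

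Every class had a share in the higher list above the 12.1% of all protein-coding genes. It was 42.1% for receptor tyrosine phosphatases (8 of 19), 23.5% for other tyrosine phosphatases (4 of 17), 20.8% for dual-specificity phosphatases (5 of 24) and 20.2% for serine/threonine phosphatases (18 of 89). The exact intervals were 20.3 to 66.5% for the receptor class, 6.81 to 49.9% for other tyrosine, 7.13 to 42.2% for dual-specificity and 12.4 to 30.1% for serine/threonine genes. Those of the other tyrosine and dual-specificity classes include 12.1%, and all 4 intervals overlap. The intervals carry counting error only and treat genes as independent, and the 12.1% is not matched for gene length. The named shares of all protein-coding genes by length decile, applied to these genes, come to 6.04 receptor and 12.8 serine/threonine genes. For other tyrosine and dual-specificity genes they come to 3.47 and 1.96. In the order given, 8, 18, 4 and 5 genes were found. The lower list held 2 receptor genes and 2 serine/threonine subunit genes, and 0 of the 17 other tyrosine and 0 of the 24 dual-specificity genes.

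**Figure D1:**
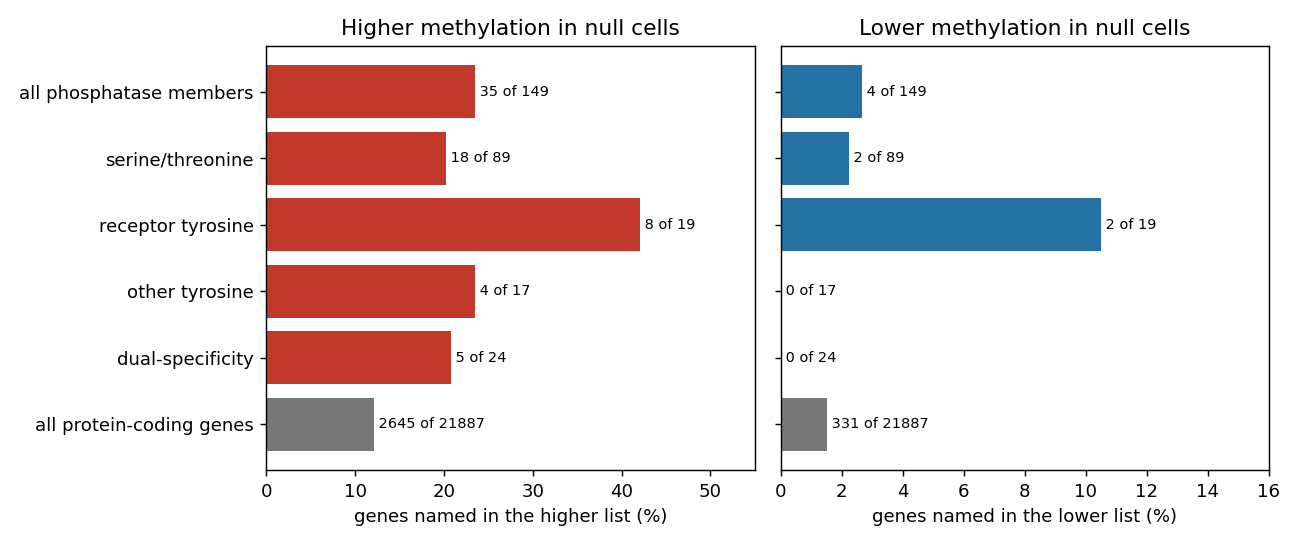
Share of protein-coding genes named in the higher list (left) and in the lower list (right), in percent, for all phosphatase members, each class and all protein-coding genes; figures beside the bars are genes named of genes in the group. The receptor class has the longest bar in both panels, with 8 of 19 and 2 of 19 genes.

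Among the serine/threonine phosphatases, the myosin phosphatase stood in both lists. Of 5 genes for its targeting subunits and their close relatives, which bring PP1 to myosin and other substrates, 4 were named, against 13.1% of all protein-coding genes named in either list. The median length of the 5 was 99.6 kb. Ppp1r12a and Ppp1r12b lie in the longest decile of gene length (109 kb and above). There the higher list named 38.4% of all genes, and the lower list 4.89%. Over all lengths, the lower list named 1.51% of protein-coding genes. Ppp1r16b lies in decile 9, where the higher list named 21.0%, and Ppp1r12c and Ppp1r16a in decile 6, where it named 8.22%. Ppp1r12a, the widely expressed targeting subunit MYPT1 (chromosome 10, 108162092 to 108279985, 118 kb), was in both lists. Ppp1r12b, the related subunit of striated muscle (chromosome 1, 134754658 to 134955963, 201 kb), was in the lower list alone. Ppp1r12c (chromosome 7, 4481519 to 4503763, 22.2 kb) and Ppp1r16b, a membrane-bound relative (chromosome 2, 158666733 to 158766334, 99.6 kb), were in the higher list alone, and Ppp1r16a was in neither. Ppp1cb, the catalytic subunit found in myosin phosphatase (chromosome 5, 32458848 to 32493713, 34.9 kb), was in the higher list. The catalytic subunits Ppp1ca and Ppp1cc, and the related gene Ppp1ccb, were in neither.

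Further PP1 regulators in the higher list came from several groups, each of at most 18 genes. The higher list held 27.3% of the inhibitors, 28.6% of glycogen-targeting subunits and 16.7% of other regulatory subunits. It held 12.1% of all protein-coding genes. Of 11 inhibitor genes, 3 were there: Ppp1r1b, which encodes DARPP-32, a PP1 inhibitor switched on by protein kinase A (chromosome 11, 98348406 to 98357796, 9.39 kb), its relative Ppp1r1c (chromosome 2, 79707780 to 79818546, 111 kb) and Ppp1r17 (chromosome 6, 56017497 to 56032689, 15.2 kb). Of 7 glycogen-targeting subunits, which bring PP1 to glycogen enzymes, 2 were there, the hepatic subunit Ppp1r3b (chromosome 8, 35375694 to 35388139, 12.4 kb) and Ppp1r3f (chromosome X, 7558562 to 7574281, 15.7 kb). Of 18 other PP1 regulatory subunits, 3 were there. These were Ppp1r9a, the actin-binding neurabin of neurons (chromosome 6, 4902872 to 5165661, 263 kb), Ppp1r13b, a partner of p53 (chromosome 12, 111828457 to 111908119, 79.7 kb), and Ppp1r21 (chromosome 17, 88530124 to 88588367, 58.2 kb).

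For PP2A and its relatives, 2 regulatory subunit genes were in the higher list, which named 12.1% of all protein-coding genes. The catalytic genes Ppp2ca and Ppp2cb and the scaffold genes Ppp2r1a and Ppp2r1b were in neither list. Of 5 B56 regulatory subunits, which direct PP2A to its substrates, Ppp2r5a (chromosome 1, 191351981 to 191397041, 45.1 kb) and Ppp2r5c (chromosome 12, 110447144 to 110583075, 136 kb) were in the higher list. The other 7 PP2A regulatory genes were in neither, among them Ppp2r2b (414 kb), the longest serine/threonine member, Ppp2r3a (147 kb) and Ppp2r2c (88.2 kb). All 11 genes for PP4, PP5 and PP6 subunits, including the catalytic genes Ppp4c, Ppp5c and Ppp6c and the long genes Ppp6r3 (121 kb), Ppp4r4 (81.6 kb) and Ppp6r2 (75.6 kb), were in neither.

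Calcineurin, the calcium-activated phosphatase that moves NFAT factors into the nucleus, had 1 of its 5 subunit genes in the higher list. This was Ppp3ca, a catalytic subunit (chromosome 3, 136669714 to 136937727, 268 kb). The catalytic genes Ppp3cb (47.2 kb) and Ppp3cc (71.7 kb) and the regulatory genes Ppp3r1 and Ppp3r2 were in neither list. Among 13 partners of calcineurin, 5 were in the higher list, and the lower list held 0. They were the NFAT genes Nfatc1 and Nfatc2, the calmodulin genes Calm2 and Calm3, and Dyrk1a, a kinase that opposes calcineurin at NFAT. These 5 are 38.5% of a list with a median gene length of 71.7 kb, against 12.1% of all protein-coding genes at a median of 17.2 kb.

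Of the 12 PPM1 enzymes, 3 were in the higher list. Ppm1k, the mitochondrial phosphatase that activates the breakdown of branched-chain amino acids (chromosome 6, 57506502 to 57535552, 29.1 kb), was the shortest of them. Ppm1h, which acts on phosphorylated Rab proteins (chromosome 10, 122677428 to 122945795, 268 kb), and Ppm1l, an enzyme of the endoplasmic reticulum (chromosome 3, 69316918 to 69560798, 244 kb), were the others. Ppm1e (132 kb), Ppm1b (67.3 kb) and 7 further genes were in neither list. Ppm1h, Ppm1l and Ppm1e lie in the longest length decile, where the higher list named 38.4% of all genes.

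The LAR-type, MAM domain, type III, type IV and type V receptors, of 2 to 5 genes each, all had at least 1 named gene. Of all protein-coding genes, 13.1% were in either list. Ptprr, Ptprc and Ptprcap were grouped as other receptor genes, and of these Ptprr alone was named. Of all 19 receptor genes, 8 were in the higher list (42.1%, against 12.1% of all protein-coding genes). Most of these are long genes, with a median of 151 kb over the class, and 13 of the 19 were in the longest decile. In that decile 38.4% of all genes were in the higher list. The length-decile shares of all genes come to 6.04 receptor genes. Of 3 LAR-type receptors, which organise axons and synapses, Ptprd (chromosome 4, 75941237 to 78211742, 2270 kb) and Ptprf, the LAR gene itself (chromosome 4, 118208213 to 118291405, 83.2 kb), were in the higher list, and Ptprs (64.1 kb) was in neither. Of the 4 MAM domain receptors, which bind copies of themselves on neighbouring cells, Ptprk (chromosome 10, 28074820 to 28597397, 523 kb) and Ptprm (chromosome 17, 66666848 to 67354491, 688 kb) were in the higher list. Ptprt, of the same type (chromosome 2, 161521988 to 162661147, 1140 kb), was in the lower list alone, and Ptpru (69.8 kb) was in neither. The 3 named genes of this type were thus split between the lists.

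The remaining receptor types and the group of other receptor genes, of 2 to 5 genes, had 1 named gene each. The higher list named 12.1% of all protein-coding genes and the lower list 1.51%. In the longest decile, which holds Ptpre, Ptprg, Ptprb and Ptprr, the lists named 38.4% and 4.89%. Ptpre (chromosome 7, 135537824 to 135686294, 148 kb) was in both lists, while Ptpra (104 kb), the other short-tailed receptor, was in neither. Ptprg, with a carbonic anhydrase-like extracellular domain (chromosome 14, 11553440 to 12242041, 689 kb), was in the higher list, and its relative Ptprz1 (178 kb) in neither. Of 5 type III receptors, Ptprb, the endothelial receptor VE-PTP (chromosome 10, 116275502 to 116389538, 114 kb), was in the higher list. Ptpro (212 kb), Ptprq (206 kb), Ptprj (151 kb) and Ptprh (55.4 kb) were in neither. Ptprr, which acts on MAP kinases (chromosome 10, 116018188 to 116274932, 257 kb), was in the higher list and ends 0.57 kb before Ptprb begins. This was the sole pair of named members within 1 Mb of each other, and the nearest-gene rule may not separate them.

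Ligands and scaffold partners of these receptors were looked up as well. Of 24 such genes, Cntn4, a contactin bound by Ptprg (1020 kb), and Ppfia2, a liprin scaffold of LAR-type receptors (464 kb), were in the higher list, and the lower list held 0. That is 8.33%, against 12.1% of all protein-coding genes. The list's median gene length was 105 kb, and 21.0% of all genes of decile 9 and 38.4% of those of decile 10, the longest, were in the higher list.

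**Figure D2:**
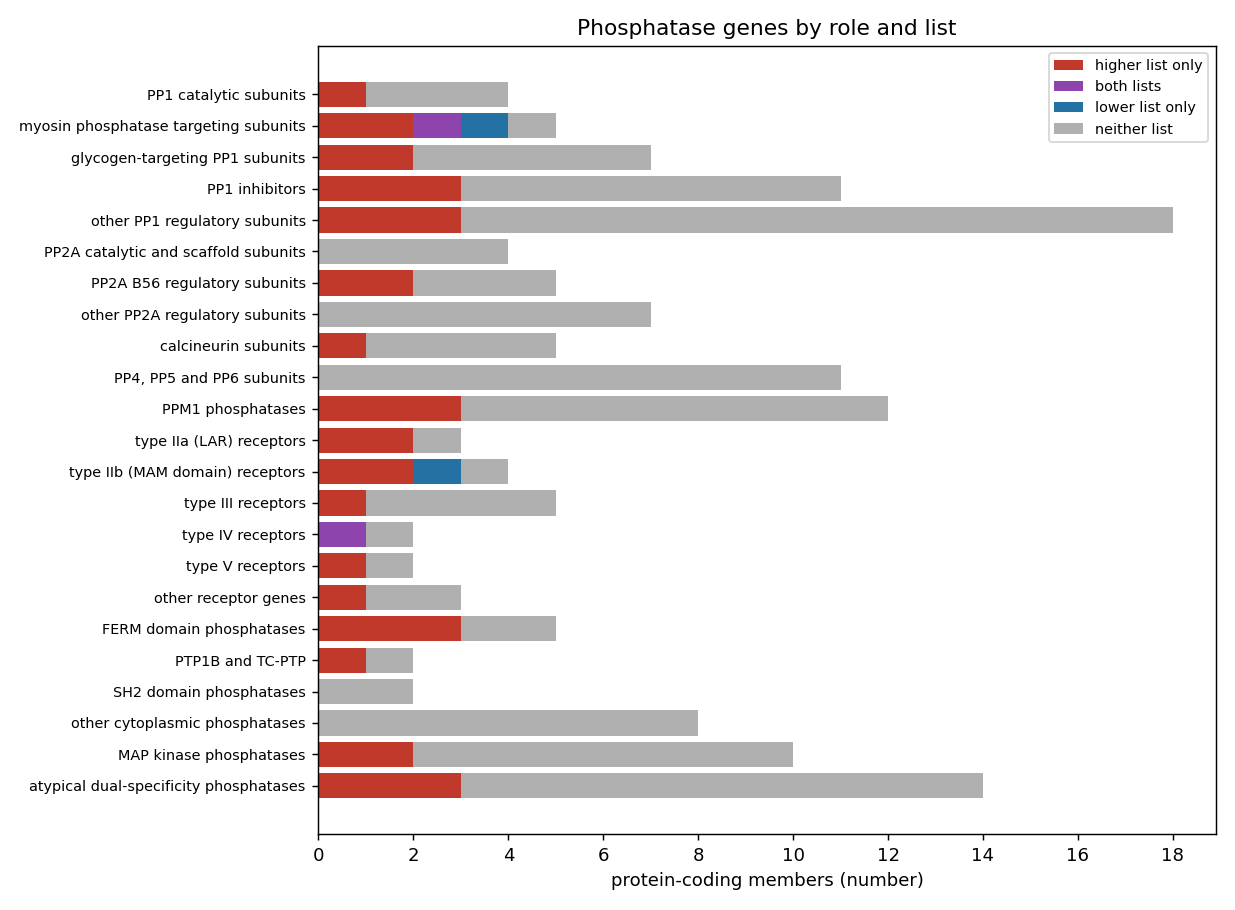
Number of protein-coding phosphatase members in each role, split by whether the gene was in the higher list alone, in both lists, in the lower list alone or in neither. Lower-list genes appear in 3 bars, those of the myosin phosphatase targeting subunits, the MAM domain receptors and the type IV receptors.

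Of the 17 tyrosine phosphatase genes without a receptor part, 4 were in the higher list (23.5%, against 12.1% of all protein-coding genes). Those with a FERM domain, which binds membranes and adhesion proteins, made up most of the named genes and had a median length of 148 kb. Of 5 such genes, 3 were in the higher list: Ptpn3 (chromosome 4, 57190841 to 57339040, 148 kb), Ptpn14, a binder of the Hippo effector YAP (chromosome 1, 189728216 to 189876695, 148 kb), and its close relative Ptpn21 (chromosome 12, 98676741 to 98737613, 60.9 kb). The other FERM genes, Ptpn4 (185 kb) and Ptpn13 (173 kb), were the longest of the class and were in neither list. Ptpn1, which encodes PTP1B (chromosome 2, 167930750 to 167979385, 48.6 kb), was in the higher list, and its close relative Ptpn2 (59.1 kb) was in neither. The SH2 domain genes Ptpn6 and Ptpn11, Ptpn11 being the phosphatase that carries receptor signals to Ras, were in neither. So were Ptpn12 (69.3 kb), Ptpn9 (67.8 kb), Ptpn5 (56.2 kb), Ptpn22 (55.7 kb), Ptpn20 (51.6 kb), Ptpn23 (23.1 kb), Ptpn18 and Ptpn7.

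Among substrates of these enzymes in insulin signalling, the higher list held Insr (129 kb) and Igf1r (281 kb), the insulin and IGF1 receptors. It also held Irs2 (24.2 kb) and Gab1 (116 kb), their docking proteins, while the related Irs1 and Gab2 were in neither list. The higher list named 12.1% of all protein-coding genes. In the longest length decile, which holds Insr, Igf1r and Gab1, it named 38.4%.

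Dual-specificity phosphatases were short genes, with a median of 11.8 kb. Of these 24 genes, 5 were in the higher list (20.8%, against 12.1% of all protein-coding genes). Of 10 MAP kinase phosphatases, Dusp6, the cytoplasmic phosphatase of ERK and a feedback gene of FGF signalling (chromosome 10, 99263231 to 99267489, 4.26 kb), and Dusp5, a nuclear phosphatase of ERK (chromosome 19, 53529145 to 53541809, 12.7 kb), were named. Of 14 atypical members, which lack the MAP kinase-binding domain, 3 were named. These were Dusp14 (chromosome 11, 84048033 to 84069256, 21.2 kb), Dusp23 (chromosome 1, 172630769 to 172632974, 2.21 kb) and Dusp27, a muscle gene (chromosome 1, 166098148 to 166127898, 29.8 kb). Dusp16 (91.6 kb), Dusp22 (51.2 kb) and Dusp10 (41.3 kb), the longest of the class, were in neither list. So were Dusp11, Dusp8, Dusp3, Dusp13, Dusp19, Dusp4 and Dusp12, which ran from 19.5 kb down to 11.4 kb. Of 13 MAP kinase genes, Mapk3, which encodes ERK1, Mapk8 and Mapk10 were in the higher list (23.1%, against 12.1% of all protein-coding genes), and the lower list held 0 (against 1.51%).

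Gene length moved with these counts. Members in the higher list had a median length of 83.2 kb, members in neither list 22.2 kb, and all protein-coding genes 17.2 kb. Of the 30 members in the longest decile of all protein-coding genes (109 kb and above), 16 were in the higher list (53.3%), against 38.4% of all genes of that length. All 4 members of the lower list were among these 30 (13.3%), against 4.89% of all genes of that length. Below that length, 19 of 119 members were in the higher list, against 9.16% of all such genes, and 0 in the lower list, against 1.14%. In the 5 shortest deciles together, 7 of 53 members were in the higher list, against 5.89% of all such genes, and 0 in the lower list, against 0.676%. The part of length in the members' counts was measured only in these steps, and length also varies within a step, up to 2270 kb for Ptprd.

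**Figure D3:**
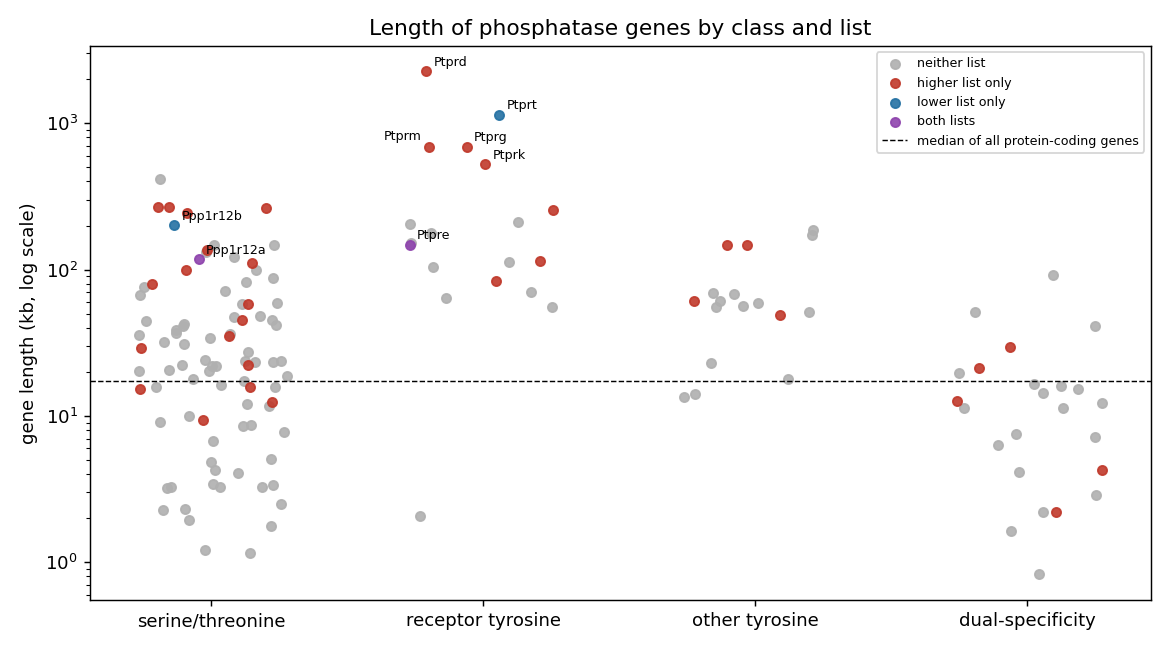
Gene length in kb on a log scale for each protein-coding phosphatase member, by class, coloured by list; the dashed line is the median of all protein-coding genes, 17.2 kb. The 4 lower-list members lie at 118 kb and above, while the 5 named dual-specificity genes lie between 2.21 and 29.8 kb.

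The named share of all protein-coding genes in each length decile, applied to the members' own lengths, comes to 24.3 genes for the higher list, where 35 were found, and 3.03 genes for the lower list, where 4 were found. For receptor genes the same figure was 6.04 for the higher list, with 8 found, and 0.743 for the lower list, with 2 found. For serine/threonine genes it was 12.8 with 18 found, for other tyrosine genes 3.47 with 4 found, and for dual-specificity genes 1.96 with 5 found. These are descriptions of the lists and carry no test. Of the 30 longest members, 12 were in neither list: Ppp2r2b, Ptpro, Ptprq, Ptpn4, Ptprz1, Ptpn13, Ptprj, Ppp2r3a, Ppp2r5e, Ppm1e, Ppp6r3 and Ptprc.

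**Figure D4:**
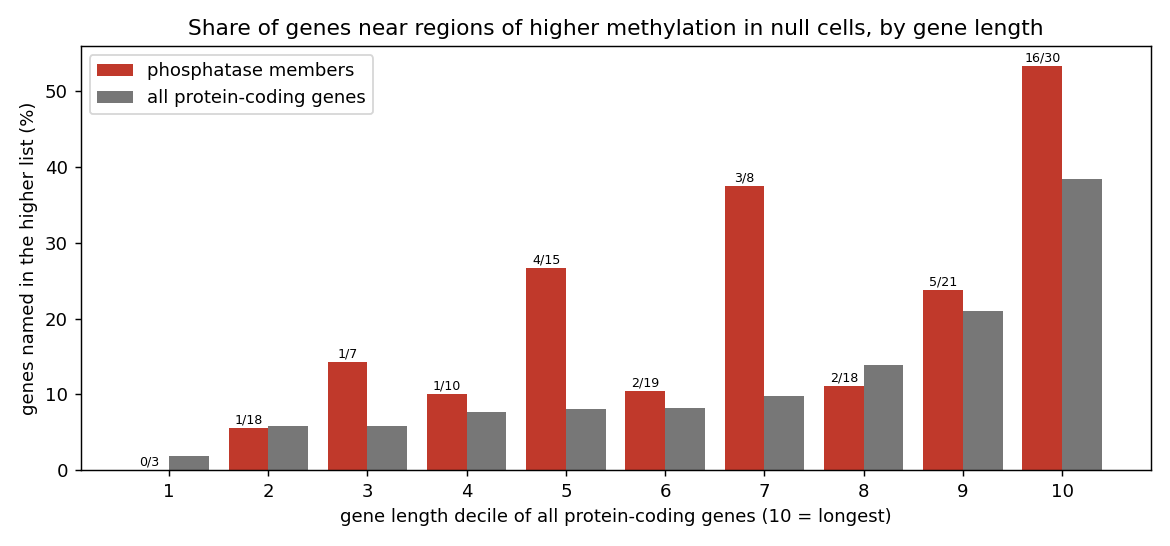
Percent of genes in the higher list by gene length decile, for phosphatase members (left bar of each pair, with genes named of genes present) and all protein-coding genes (right bar). The longest decile holds 16 of 30 members, or 53.3%, against 38.4% of all genes of that length.

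Members were spread over the chromosomes, with most of those on chromosome 10 named. Of 8 members there, 6 were in the higher list (Ptprk, Dusp6, Ppp1r12a, Ptprr, Ptprb and Ppm1h), against 14.2% of all protein-coding genes of that chromosome. Ptprq and Ppp1r14c (99.0 kb) were the others. Chromosome 10 was singled out after its values were seen. The 14.2% is not matched for length. All of the 6 but Dusp6 were 114 kb or longer, in the longest decile, where 38.4% of all genes were in the higher list. Ptprr and Ptprb lie 0.57 kb apart and may not be separate under the nearest-gene rule. Of 3 members on the X chromosome, Ppp1r3f was in the higher list, against 2.69% of all protein-coding genes there.

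Genes next to the members were also looked up, taking as adjacent the previous and next protein-coding genes by start position. By this rule Ptprr, which Taf7l2 overlaps, did not count as adjacent to Ptprb. Of the 35 members in the higher list, 16 (45.7%) had an adjacent protein-coding gene in the same list, against 51.9% of all protein-coding genes in it. None of the 4 lower-list members had an adjacent gene in the lower list (0 of 4), against 19.3% of all genes in that list. The annotation places Ppp1r3f over the end of the noncoding gene Flicr (chromosome X, 7573600 to 7581016), which the higher list names by its older symbol Ppp1r3fos. Ptprtos lies within Ptprt. Regions at such overlaps cannot be assigned to either gene.

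Promoters of the members were richer in CpG than those of protein-coding genes in general, whether or not the member was named. The 300-base window around an annotated start, 250 bases before to 50 after it, was held for 120 of the 149 members. The median was 29.5 CpGs in the higher list (28 genes), 30.0 in the lower list (4 genes) and 23.0 in neither list (90 genes). Across all protein-coding genes, 17492 with a window had a median of 13.0 CpGs, and the 2070 of them in the higher list had 19.0. The letters CG read the same on both strands, and 94.8% of all protein-coding windows held at least 1. Named members ran from 3 CpGs at Dusp27 to 47 at Ptpn1, Ptpn21 and Ppp1r13b, and unnamed members from 1 to 49, so the groups overlapped over almost their whole range.

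**Figure D5:**
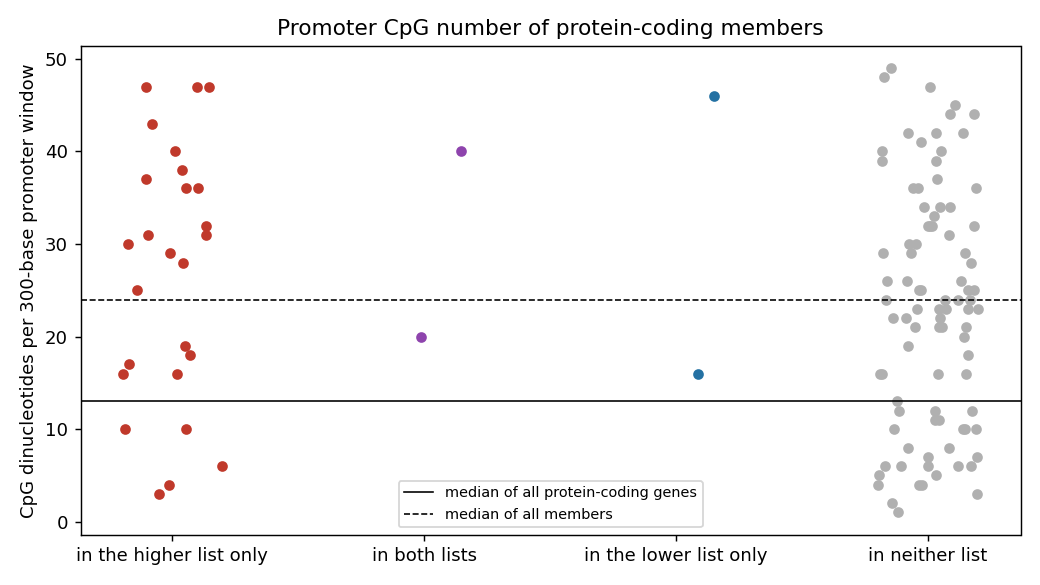
Number of CpGs in the 300-base promoter window of each protein-coding member, by list, with the median of all members (dashed) and of all protein-coding genes (13.0, solid). Named members span 3 to 47 CpGs and unnamed members 1 to 49.

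Markers of endocrine cells and of other cells that the sort could hold were also looked up. Ptprc, which encodes the leukocyte surface protein CD45, was in neither list, as were Ptpn6, Ptpn22 and Ptprcap, further genes of blood cells. Of 15 blood cell markers, Spi1 and Laptm5 were in the higher list and Lcp1 in the lower list, which is 13.3% in the higher list against 12.1% of all protein-coding genes. Of 10 endothelial markers, Erg, Flt1 and Egfl7 were in the higher list (30.0%) and Kdr was in the lower list. The endothelial receptor gene Ptprb, in the higher list, is not among these 10 markers. The lower list named 1.51% of all protein-coding genes. Of 10 mesenchyme markers, 0 were in either list, and of 15 endocrine markers, Pax4, Nkx6-1, Insm1 and Ins1 were in the higher list (26.7%). The endothelial and endocrine lists had median gene lengths of 53.7 and 7.01 kb. With 10 and 15 genes, they are too small for their shares to be set apart from the 23.5% of the phosphatase members. The part of other cells in these results was not tested.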

How the data were processed

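Per the labels' protocols, cells sorted for eGFP were lysed directly, and 75 ng of DNA was tagmented with Tn5, bisulfite-converted and amplified by 12 PCR cycles, with paired reads of 150 bp. Trim Galore and the builds mm10 and GRCm38 are named in the submitters' processing notes. For the aligner, region caller, thresholds and nearest-gene rule, nothing is stated in the sources. The authors deposited a table of 9 columns of gene names, with no measured quantity. Per the file headers, column 1 is the lower list and column 2 starts the higher list; 7 columns without a header carry on its alphabetical order.

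Names were matched, ignoring case, to current symbols, gene IDs and unique older symbols of RefSeq GRCm38.p6 (3145 of 3230 in the higher list and 406 of 429 in the lower list) in Python 3.11.15. Matching was tested on planted names. Shares have exact Clopper-Pearson 95% intervals (SciPy 1.17.1), and length deciles are 10 bins over all protein-coding genes. Members, roles and 12 partner and marker lists were chosen with earlier results of these data known; roles were assigned after the table had been seen. Every member in either list is named, with catalytic Ppp genes and up to 10 of the longest other unnamed members of each class; others are named as examples. Counts over the list of insulin and cytokine signalling substrates are not reported here. Promoter sequences are from RefSeq, GRCm38.p6. Protein features were not analysed here.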

Additional observations from a re-analysis of the deposited data

How the results depend on the processing

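Of 24 alternative values, 22 stayed within the 95% interval of the value reported and 2 moved outside it. In the longest length decile, which keeps 30 of the 149 members, the share in the higher list was 53.3%, against 38.4% of all genes of that length. The share in the lower list was 13.3%, against 4.89%. Leaving out genes named in both lists gave 22.4% for the higher and 1.36% for the lower list, against 11.6% and 1.01% of all protein-coding genes counted in the same way. Without regulatory subunits and Ptprcap the shares were 26.5 and 2.41%, and with Ptprn and Ptprn2 23.8 and 2.65%. Of all protein-coding genes, the lists named 12.1 and 1.51%. Over all gene classes the shares were 22.2 and 2.47%, against 6.29 and 0.812% of all annotated genes. Counting the deposited spelling Ppp1r3fos as well, chosen after seeing the data, gave 22.7 and 2.45%. Current symbols alone changed no member's place, and the planned search of protein sequences was not run. No paired analysis was possible because there is a single library per genotype. The depth behind each region is unknown, and 4 members are too few for the lower list to show a moderate difference from other genes.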

Other observations

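Other phosphatase genes, outside the symbol rule, were named in the higher list as well. Of 36 such genes, 10 were there (27.8%, with a median gene length of 47.2 kb) and 0 in the lower list, against 12.1% and 1.51% of all protein-coding genes. All 4 Eya genes, which encode transcriptional coactivators with a phosphatase domain, were in the higher list: Eya1 (142 kb), Eya2 (177 kb), Eya3 (85.7 kb) and Eya4 (248 kb). This family was singled out after its values were seen. The others were Ctdspl (118 kb), Mtmr2 (61.6 kb), Ptp4a1 (9.57 kb), Ssh3 (7.57 kb), Pdp2 (7.55 kb) and Ptprn2 (792 kb). Ptprn2 encodes a protein of secretory granules that lacks ordinary phosphatase activity, and its relative Ptprn was in neither list.

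Of the catalytic genes fixed as a list for PP2A, PP4, PP5 and PP6 and the related Ppef1 and Ppef2, 0 of 7 were in either list, where 13.1% of all protein-coding genes were, too few genes to show a difference. Of 3 PP1 catalytic genes, Ppp1cb was in the higher list.

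Ppp2r5c lies 166 kb from Dio3, an imprinted gene of chromosome 12 that was in neither list.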
